A study of Mus musculus with 16 samples.

Results

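Kupffer cells, the resident macrophages of the liver, were followed through 10 marker genes: Clec4f, Adgre1, Timd4, Cd5l, Marco, Cd163, Vsig4, C1qa, C1qb and Csf1r. These are 10 of the 27778 genes on the array, picked by name among the probes for transcripts, where Adgre1 is filed under its older name Emr1. They are covered by 13 of 41174 probes. RNA came from whole livers of male C57BL/6 mice aged 3 months, hybridised with the dye Cy3 to 16 single-colour arrays. The 4 groups, of 4 arrays each, were GR knockout livers with dexamethasone, GR knockout livers without it, wild-type livers with dexamethasone and wild-type livers without it. GR is the glucocorticoid receptor, the product of Nr3c1, and dexamethasone is a synthetic glucocorticoid that activates it. The protocol calls the mutants liver knockouts and names no Cre driver or deleted exon, and it gives no dose, route or duration for the drug. It also speaks of vehicle where the sample descriptions say untreated, and titles of the knockout samples carry the word PBS. Whether each replicate was a separate mouse is not stated outright, so p-values measure the spread between these samples.

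Kupffer cells line the liver sinusoids and clear microbes, dying cells, haemoglobin and immune complexes from portal blood. Most are seeded before birth and renew themselves under signals through the receptor Csf1r, while recruited monocytes can refill the niche and take on the marker genes in stages, with Timd4 late. Macrophages carry glucocorticoid receptor of their own, and glucocorticoids move macrophages towards a scavenging and efferocytic state. In RNA from whole liver, fewer cells of a type and less RNA per cell cannot be told apart.

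Levels are log2 signals relative to the 75th percentile of the array, so they compare arrays for 1 probe and not one gene with another. That percentile lay between 523 and 692 signal units on 14 arrays, at 309 on untreated knockout array 1 and at 401 on untreated wild-type array 4. Member results whose call changes without these 2 dim arrays are given with and without them, and of 107 calls of genes from other lists 18 were lost without both. The number of arrays limits the precision. Nr3c1, the targeted gene, averaged 0.17 ± 0.26 in treated and 0.42 ± 0.13 in untreated knockout livers, against 2.13 ± 0.14 in treated and 2.40 ± 0.18 in untreated wild-type livers (SD, n = 4 each). It was 1.96 lower with dexamethasone and 1.99 lower without it on the log2 scale (limma, adjusted p = 6.38e-06 and 1.64e-05). Every slide carried arrays of a single group, and effects of slide and of group therefore cannot be told apart. All 10 hepatocyte genes listed for a check of the tissue passed the filter on dim signal, as did all 10 Kupffer cell markers.

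The probes decide what was measured, and those of Adgre1, Clec4f, Timd4, Cd5l and Cd163 are shown because the first gene is read differently by its 2 probes and the others carry the results. All are in lower case, 5′ to 3′, with positions on the mm7 build as the files give them.
Adgre1 probe A_51_P251768, chr17:55686649-55686708, plus strand: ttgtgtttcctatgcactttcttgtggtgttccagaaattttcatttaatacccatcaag
Adgre1 probe A_52_P364727, chr17:55613754-55613813, plus strand: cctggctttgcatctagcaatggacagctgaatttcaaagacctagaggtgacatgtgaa
Clec4f probe A_51_P271865, chr6:83670672-83670730, minus strand: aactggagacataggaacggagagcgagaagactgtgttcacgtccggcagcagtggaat
Timd4 probe A_52_P609868, chr11:46800424-46800483, plus strand: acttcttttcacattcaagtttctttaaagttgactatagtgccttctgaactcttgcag
Cd5l probe A_51_P205779, chr3:87483753-87483812, plus strand: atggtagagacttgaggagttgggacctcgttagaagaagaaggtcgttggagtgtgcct
Cd163 probe A_51_P231042, chr6:124312766-124312825, plus strand: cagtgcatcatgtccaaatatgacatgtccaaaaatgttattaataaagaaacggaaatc
The first Adgre1 probe was well above background on 16 of 16 arrays and the second on 0 of 16, so Adgre1 rests on the first alone. Exon or UTR positions of the probes were not annotated on this build in the sources used here. Of the 13 probes, 12 passed the filter on dim signal, and all 10 genes kept at least 1 probe. Csf1r, with 3 probes, is represented by its brightest. The probes of Clec4f, Marco, Cd5l, Vsig4, C1qa, C1qb, Timd4 and Cd163 were each above background on all 16 arrays, and no member spot was saturated.

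None of the 10 markers passed the threshold in any of the 5 comparisons that the design implies. With dexamethasone, 0 of 10 were called in knockout livers and 0 of 10 in wild-type livers, where 3.58% and 12% of all 18507 genes tested were called. Between knockout and wild type, 0 of 10 were called with dexamethasone and 0 of 10 without it, against 22.3% and 2.82% of all genes. The interaction, which asks whether the dexamethasone response differed between genotypes, called 0 of 10 against 4.61% of all genes. At an unadjusted p under 0.05 the counts in limma were 2, 1, 2, 3 and 0 in the order just given, where 16.7%, 26.4%, 35%, 19.4% and 16.6% of all genes passed.

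Direction was more uniform than the calls. All 10 markers had a higher mean in knockout than in wild-type livers, both with dexamethasone (differences of 0.15 to 0.88, median 0.33) and without it (0.21 to 0.73, median 0.46). Over all genes the medians were 0.09 and 0.05, and 41.9% and 43.6% of genes had a lower mean in the knockout. With dexamethasone, 7 of 10 markers had a lower mean in each genotype, where 50.3% of all genes did so in knockout and 53.6% in wild-type livers. The median difference was -0.22 in knockout and -0.21 in wild-type livers, against -0.00 and -0.03 over all genes. The markers vary together from array to array, so these counts are not 10 separate observations.

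Averaging over the other factor, 8 arrays against 8, is a comparison added after the data were seen. Dexamethasone then called 1 of 10 markers, Cd163, where 11.7% of all genes were called, and the knockout called 2 of 10, Timd4 and Cd5l, where 23.1% of all genes were called. Both shares lie near the background.

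**Figure D1:**
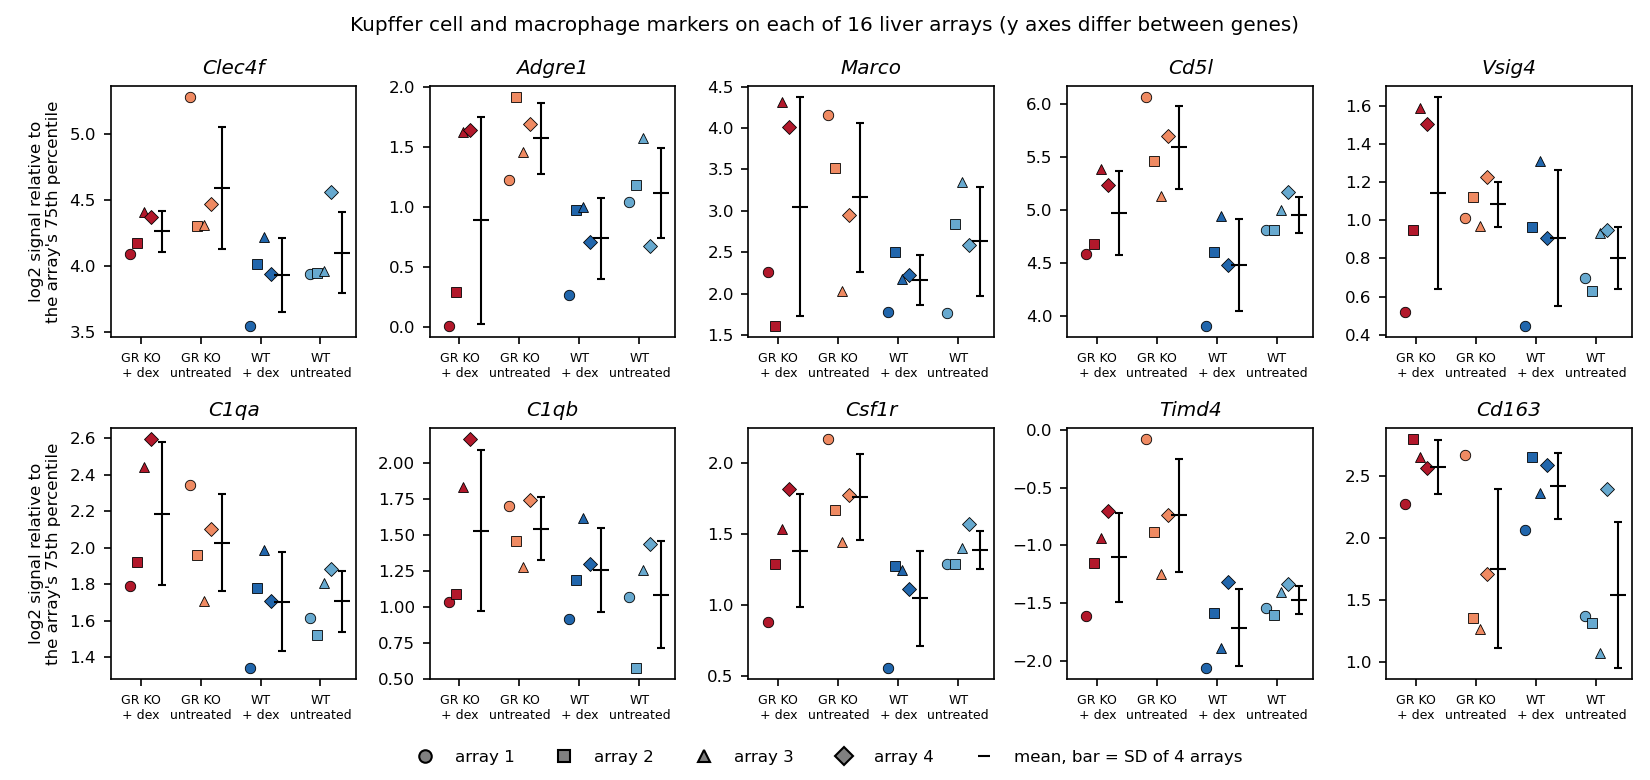
Log2 level of each of the 10 markers (y axis, relative to the array's 75th percentile, with a scale of its own in each panel) on the 16 arrays, by group on the x axis. Symbols are arrays 1 to 4 of each group, and the black bar is the mean with its SD (n = 4). Cd163 sits between 2.06 and 2.79 on all 8 treated arrays, and 6 of 8 untreated arrays lie at 1.71 or lower.

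**Figure D2:**
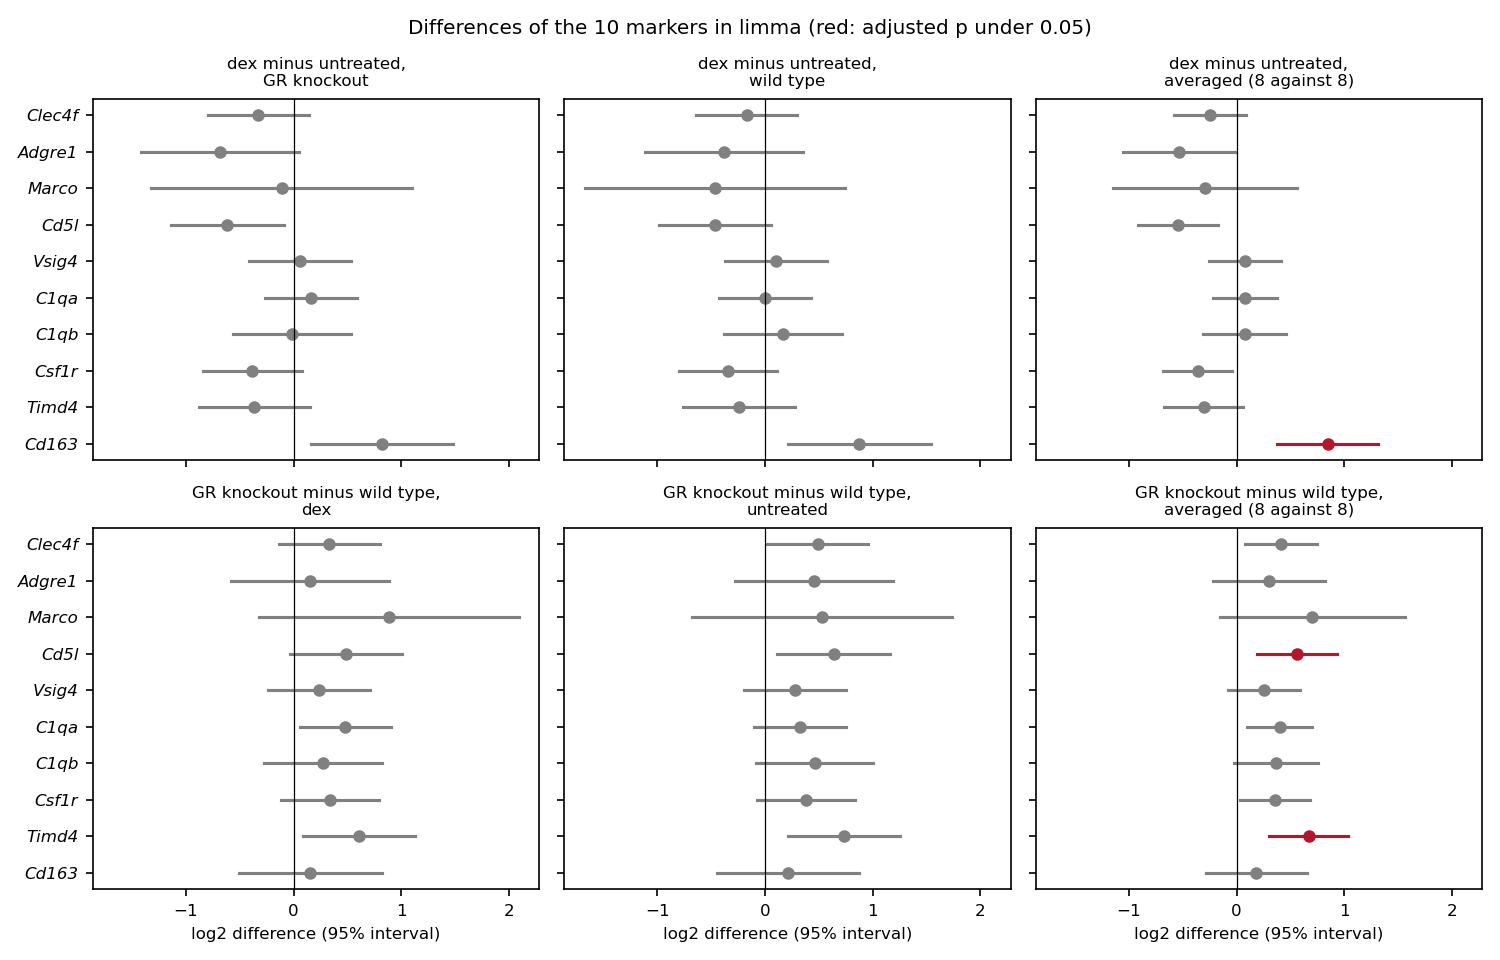
Log2 differences of the 10 markers with 95% intervals (x axis) in the limma model, for dexamethasone against no treatment (top) and GR knockout against wild type (bottom), within each level of the other factor and averaged over it. Red marks an adjusted p under 0.05, seen in the averaged panels only, for Cd163 with dexamethasone and for Timd4 and Cd5l in the knockout.

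Cd163, the scavenger receptor for haptoglobin-haemoglobin complexes and in human macrophages a well known glucocorticoid-induced gene, was the marker that stood highest with dexamethasone. Its levels were 2.27, 2.79, 2.65 and 2.56 in treated knockout livers, against 2.67, 1.36, 1.27 and 1.71 in untreated knockout livers. In wild-type livers they were 2.06, 2.65, 2.36 and 2.59 with dexamethasone, against 1.37, 1.31, 1.07 and 2.39 without it. In each genotype 3 of 4 untreated arrays lay below every treated array, and the exceptions were untreated knockout array 1 and untreated wild-type array 4, the 2 dim arrays.
The dexamethasone difference was 0.82 ± 0.31 (SE) in knockout livers and 0.88 ± 0.31 in wild-type livers (adjusted p = 0.177 and 0.0815, limma). The interaction was -0.06 with a 95% interval of -0.99 to 0.88, which leaves room for a sizeable difference in either direction. Averaged over genotypes, Cd163 rose with dexamethasone by 0.85 ± 0.22 (95% interval 0.38 to 1.32, 1.80-fold, adjusted p = 0.022 in limma).
Without both dim arrays the difference was 1.13 in knockout and 1.16 in wild-type livers, and each was called (limma, adjusted p = 0.00352 and 0.000949). That omission was not planned. It removes the 2 untreated arrays that overlapped the treated ones, so the larger difference is no separate support. Leaving out untreated knockout array 1 alone was enough for a call in both genotypes (limma, adjusted p = 0.0268 in knockout and 0.0253 in wild type). That array is not part of the wild-type comparison, whose difference stayed at 0.88 while its SE fell from 0.31 to 0.25. Without untreated wild-type array 4 alone the wild-type difference was 1.16 and was called (adjusted p = 0.0164, limma). Knockout and wild-type livers differed in Cd163 by 0.16 with dexamethasone and by 0.21 without it, neither called (limma, adjusted p = 0.765 and 0.766).

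Timd4, the phosphatidylserine receptor Tim-4 of long-resident Kupffer cells, was the marker that stood highest in the knockout relative to its error. With dexamethasone its levels were -1.62, -1.15, -0.94 and -0.70 in knockout livers, against -2.06, -1.58, -1.89 and -1.31 in wild-type livers. Without it they were -0.08, -0.89, -1.25 and -0.74 in knockout livers, against -1.54, -1.60, -1.41 and -1.34 in wild-type livers. The untreated groups did not overlap, which held for 2 of 10 markers (Timd4 and Vsig4) and for 11.7% of all genes. The treated groups overlapped through knockout array 1, and 0 of 10 markers separated there, where 31.5% of all genes did.
The knockout difference was 0.61 ± 0.24 (SE) with dexamethasone and 0.73 ± 0.24 without it (adjusted p = 0.0874 and 0.115, limma). Averaged over treatments Timd4 was 0.67 ± 0.17 higher in knockout livers (95% interval 0.30 to 1.04, 1.59-fold, adjusted p = 0.0125 in limma). That call held without each of the 16 arrays in turn. With dexamethasone alone, Timd4 was called without treated knockout array 1 (0.78, adjusted p = 0.0409) or untreated knockout array 1 (0.61, adjusted p = 0.0355, limma). Untreated knockout array 1 is not part of that comparison, and leaving it out changed the SE (to 0.20) and not the difference. Its dexamethasone differences of -0.36 in knockout and -0.24 in wild-type livers were not called.

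Cd5l encodes AIM, a scavenger protein that macrophages secrete. Its levels with dexamethasone were 4.59, 4.68, 5.39 and 5.23 in knockout livers, against 3.91, 4.61, 4.94 and 4.48 in wild-type livers. Without it they were 6.06, 5.46, 5.13 and 5.70 in knockout livers, against 4.82, 4.82, 5.0 and 5.17 in wild-type livers. The untreated knockout group stood highest of the 4 and the treated wild-type group lowest, while treated knockout (mean 4.97) and untreated wild-type livers (mean 4.95) were within their spread of each other.
Averaged over treatments Cd5l was 0.56 ± 0.17 (SE) higher in knockout livers (1.48-fold, adjusted p = 0.0307 in limma). The call was lost without any one of 6 arrays: untreated wild-type 1 or 2, treated wild-type 1, untreated knockout 1, and treated knockout 3 or 4. The adjusted p then lay between 0.052 and 0.0643. Averaged over genotypes the dexamethasone difference was -0.54 ± 0.17 (adjusted p = 0.0572, limma), and it was called without treated wild-type array 3, untreated knockout array 3 or treated knockout array 3.

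Clec4f and Adgre1 are surface markers, the first a galactose-binding C-type lectin restricted to Kupffer cells in the mouse and the second the antigen F4/80. Clec4f had levels of 4.09, 4.18, 4.41 and 4.37 in treated knockout livers and 5.28, 4.30, 4.31 and 4.47 in untreated knockout livers. In wild-type livers they were 3.55, 4.02, 4.22 and 3.94 with dexamethasone and 3.94, 3.94, 3.96 and 4.56 without it. Its highest value in each untreated group came from the dim array.
The knockout difference of Clec4f was 0.41 ± 0.16 (SE) averaged over treatments (adjusted p = 0.0718, limma), and it was called without untreated wild-type array 4 (0.49, adjusted p = 0.0343) and without both dim arrays (0.37, adjusted p = 0.0205). The dexamethasone difference was -0.33 in knockout and -0.17 in wild-type livers, neither called.
Adgre1 split the treated knockout group, at 0.01 and 0.29 on arrays 1 and 2 and 1.62 and 1.64 on arrays 3 and 4, against 1.22, 1.91, 1.46 and 1.69 in untreated knockout livers. In wild-type livers it had 0.27, 0.98, 1.00 and 0.71 with dexamethasone and 1.04, 1.18, 1.58 and 0.67 without it. The dexamethasone difference of -0.68 in knockout livers had a 95% interval of -1.42 to 0.05, and that of -0.38 in wild-type livers one of -1.11 to 0.35.

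Marco, a scavenger receptor that binds bacteria and particles, varied most within groups (pooled SD 0.88, against 0.29 to 0.52 for the other 9). In knockout livers it had 2.27, 1.61, 4.31 and 4.01 with dexamethasone, against 4.16, 3.51, 2.03 and 2.95 without it. In wild-type livers it had 1.78, 2.50, 2.17 and 2.22 with dexamethasone, against 1.77, 2.84, 3.34 and 2.59 without it. The knockout difference was 0.88 with dexamethasone (95% interval -0.33 to 2.09) and 0.53 without it (-0.68 to 1.74). Neither was called, and the treated knockout group alone spans more than the whole range of treated wild-type livers.

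Complement is the business of 3 members: C1qa and C1qb encode chains of C1q, which opens the classical pathway and tags dying cells, and Vsig4 encodes CRIg, a receptor for complement-coated particles. Unlike Cd163, these genes had dexamethasone differences close to 0. Averaged over genotypes they were 0.08 for C1qa (95% interval -0.22 to 0.38), 0.08 for C1qb (-0.31 to 0.46) and 0.08 for Vsig4 (-0.25 to 0.42).
In knockout livers C1qa had 1.79, 1.92, 2.44 and 2.59 with dexamethasone and 2.34, 1.96, 1.71 and 2.11 without it, against 1.34, 1.78, 1.99 and 1.71 with it and 1.61, 1.52, 1.81 and 1.89 without it in wild-type livers. Its knockout difference averaged over treatments, 0.40 ± 0.14 (SE), missed the threshold (adjusted p = 0.0528, limma) and passed it under 8 of 30 alternative settings. C1qb ranged from 1.03 to 2.16 in treated and 1.28 to 1.74 in untreated knockout livers, against 0.91 to 1.62 in treated and 0.58 to 1.44 in untreated wild-type livers. Vsig4 was tight in untreated livers, at 1.01, 1.12, 0.97 and 1.23 in the knockout and 0.69, 0.63, 0.93 and 0.95 in wild type, which did not overlap. It spread from 0.52 to 1.59 in treated knockout livers and from 0.45 to 1.31 in treated wild-type livers, and its knockout difference of 0.26 averaged over treatments was not called (adjusted p = 0.256, limma).

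Csf1r is the receptor for CSF1 and IL-34 that maintains macrophages. It had 0.88, 1.29, 1.54 and 1.82 in treated and 2.17, 1.67, 1.44 and 1.78 in untreated knockout livers. In wild-type livers it had 0.56, 1.27, 1.25 and 1.11 with dexamethasone, all below the 1.29, 1.29, 1.40 and 1.57 without it. Csf1r was the 1 marker of 10 whose treated and untreated wild-type groups did not overlap, as 22.1% of all genes did not, and 0 of 10 did so in knockout livers, against 9.65% of all genes. The difference was -0.38 in knockout and -0.34 in wild-type livers, each with an SE of 0.21 and neither called. The 2 dimmer Csf1r probes gave -0.43 and -0.18 in knockout and -0.33 and -0.07 in wild-type livers, so the sign was shared and the size was not. On both of these probes the treated and untreated wild-type groups overlapped. All 3 probes had a higher mean in knockout than in wild-type livers, by 0.27 to 0.38 with dexamethasone and 0.37 to 0.48 without it.

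The markers moved together across arrays, apart from Cd163. Among the 36 pairs without Cd163 the Pearson correlation over 16 arrays had a median of 0.70 and ran from 0.36 to 0.95. After group means were removed the median was 0.73. The 9 pairs with Cd163 had a median of 0.20 over 16 arrays (-0.42 to 0.45) and 0.52 within groups. These are descriptions, since arrays share scaling and group.
Without untreated knockout array 1 the median over the 36 pairs was 0.72. Treated wild-type array 1 was the lowest of its group for 10 of 10 markers, treated knockout array 1 for 9 of 10, and untreated knockout array 3 for 8 of 10. Untreated wild-type array 4 was the highest of its group for 8 of 10 and untreated knockout array 1 for 7 of 10, the 2 dim arrays.

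Set against the mean of the other 9 markers on the same array, after centring each gene on its 16-array mean, Cd163 separated the treatments within each genotype. The difference was 0.64, 1.01, 0.06 and -0.08 in treated knockout livers, against -0.11, -1.05, -0.76 and -0.75 in untreated knockout livers. It was 0.74, 0.77, 0.38 and 0.78 in treated wild-type livers, against -0.39, -0.51, -1.05 and 0.32 in untreated wild-type livers. The treated arrays were all above the untreated ones of their genotype, and in each genotype the nearest untreated array was the dim one. This contrast was chosen after the levels were seen and has no test.

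**Figure D3:**
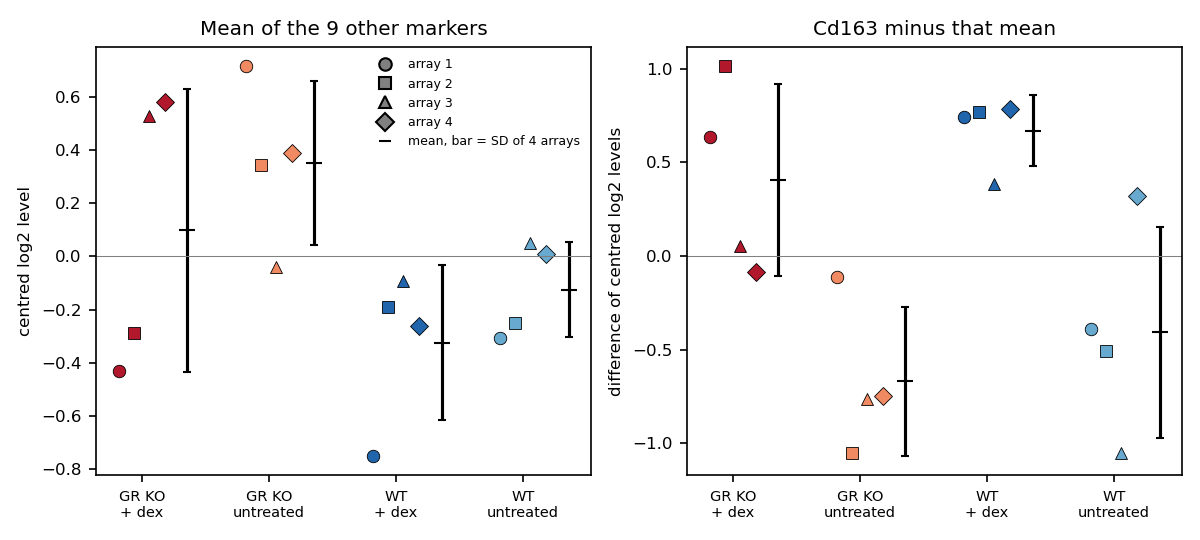
Mean of the 9 markers other than Cd163 (left) and Cd163 minus that mean (right), each gene centred on its mean over 16 arrays, in log2 units on the y axis and by group on the x axis. Points are arrays and bars are the mean and SD of 4. On the right, treated arrays run from -0.08 to 1.01 in the knockout and 0.38 to 0.78 in wild type, above the untreated arrays of the same genotype.

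Among 15120 other genes with a symbol, the 8 whose 16 array values followed the mean of the markers most closely were Ear1, Cyba, Ctss, Nckap1l, Fermt3, C1qc, Fyb and Tnfaip8l2. Pearson r was 0.95 for Ear1, an eosinophil-associated ribonuclease, 0.95 for Cyba, a subunit of the phagocyte NADPH oxidase, and 0.93 for Ctss, a lysosomal protease of antigen-presenting cells. The other 5, among them the haematopoietic integrin activator Fermt3 and the third C1q chain C1qc, lay between 0.89 and 0.92. Without untreated knockout array 1 the 8 values ran from 0.86 to 0.96. Of the members, C1qa followed the mean of the others most closely (0.92) and Cd163 least (0.12).
C1qc parted from its partner chains under dexamethasone in size, with -0.48 in knockout and -0.33 in wild-type livers, against 0.16 and -0.00 for C1qa and -0.01 and 0.17 for C1qb. None of these was called, and the difference between chains was not tested.

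**Figure D4:**
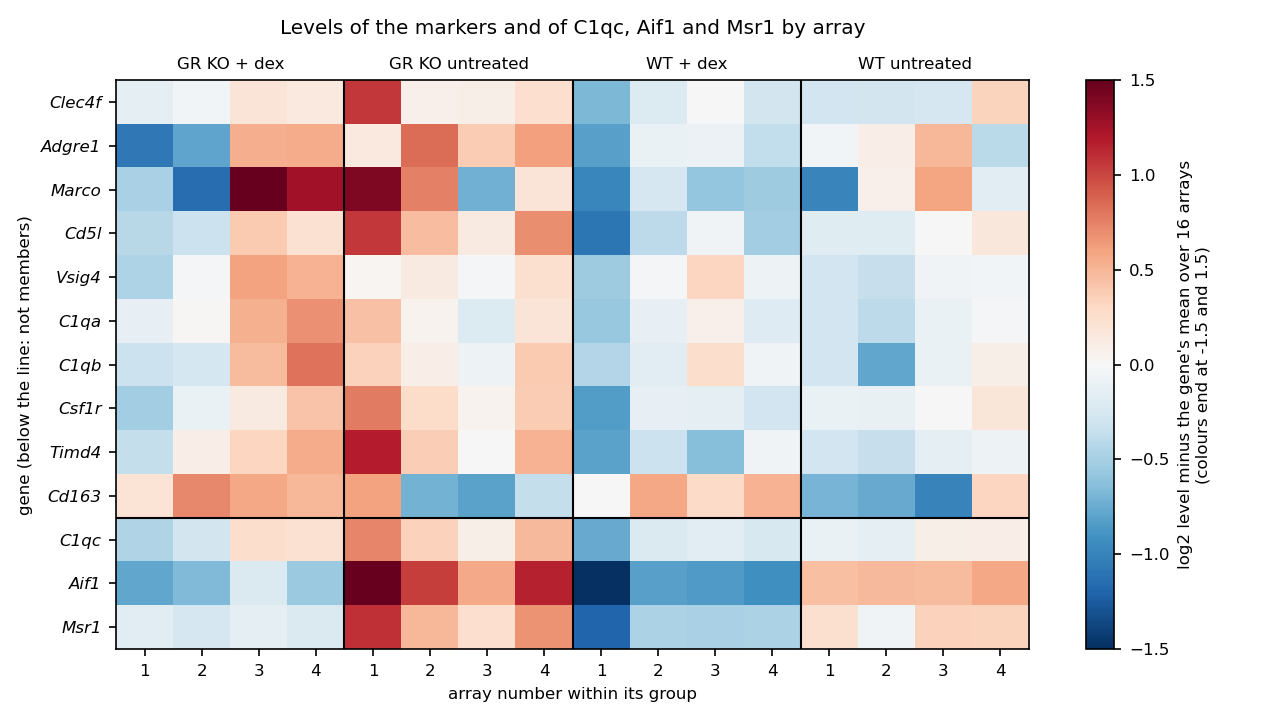
Level of each marker on each array minus its mean over 16 arrays (colour, log2 units, ending at -1.5 and 1.5), with arrays in columns by group. C1qc, Aif1 and Msr1 below the line are not members. Treated wild-type array 1 is low in nearly every row, and untreated knockout array 1 is high. Among the markers Cd163 follows the treatment most, while Aif1 and Msr1 follow it downwards.

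Promoters are shown for Cd163, Cd5l and Timd4, the 3 markers called in an averaged comparison. They come from RefSeq on GRCm38.p6 and run from 250 bases before to 50 after the start, and 7 of 10 markers matched the table. Capitals mark AGAACA, the hexamer that the glucocorticoid receptor's element repeats, or GAGGAAG, a PU.1 core, on either strand, so a match on the other strand reads TGTTCT or CTTCCTC.
Cd163, chr6:124304401-124304700, plus strand: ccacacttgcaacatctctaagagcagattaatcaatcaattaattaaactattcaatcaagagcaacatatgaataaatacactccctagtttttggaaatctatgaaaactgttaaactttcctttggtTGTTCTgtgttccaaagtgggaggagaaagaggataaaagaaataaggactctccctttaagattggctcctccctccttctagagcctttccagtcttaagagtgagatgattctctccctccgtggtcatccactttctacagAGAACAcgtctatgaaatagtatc
Cd5l, chr3:87357631-87357930, plus strand: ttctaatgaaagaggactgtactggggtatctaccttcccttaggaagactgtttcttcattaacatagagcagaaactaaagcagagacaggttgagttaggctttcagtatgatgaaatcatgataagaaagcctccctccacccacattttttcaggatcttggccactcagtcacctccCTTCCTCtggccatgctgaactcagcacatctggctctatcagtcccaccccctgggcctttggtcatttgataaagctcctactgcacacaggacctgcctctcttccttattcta
Timd4, chr11:46810549-46810848, plus strand: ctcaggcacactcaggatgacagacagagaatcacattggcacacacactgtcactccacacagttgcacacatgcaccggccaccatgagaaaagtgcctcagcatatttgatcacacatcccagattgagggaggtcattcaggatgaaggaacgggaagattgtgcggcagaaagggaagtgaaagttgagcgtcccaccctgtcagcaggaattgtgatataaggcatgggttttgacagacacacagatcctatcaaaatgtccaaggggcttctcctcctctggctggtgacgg
The Cd163 promoter holds 2 such hexamers, at bases 132 to 137 and 277 to 282 of the window. The hexamer was also in the Clec4f and C1qb promoters, 3 of 7 in all, and in 19.0% of 32851 promoters of this length. The PU.1 core was in those of Cd5l (bases 184 to 190) and Marco, 2 of 7, and in 13.6% of all. Timd4 and Vsig4 held neither. The full palindrome, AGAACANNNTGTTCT, was in 0 of 7 and in 0.00913% of all promoters. The palindrome contains the hexamer, and a match is a run of letters and not a measured site.

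Dexamethasone also moved other macrophage genes, mostly downwards. Of 30 receptors and lysosomal genes listed, 29 were tested and Itgam was too dim. With dexamethasone 2 were called lower in knockout livers (Aif1 and Msr1) and 5 in wild-type livers (those 2, Fcgr1, Cybb and Gas6), with 0 called higher in either. Over all genes 2.4% were called lower and 1.18% higher in knockout livers, and 6.81% lower and 5.18% higher in wild-type livers. The wild-type calls of Fcgr1, Cybb and Gas6 were each lost without any one of the 4 untreated wild-type arrays or treated wild-type array 1, and for Cybb and Gas6 without further arrays. Averaged over genotypes 8 fell and 1 rose, which is 27.6% and 3.45% of the list, where 6.61% of all genes were called lower and 5.04% higher. Without untreated knockout array 1 the counts were 9 lower and 3 higher. The list median was -0.29, against -0.27 for the 10 markers and -0.02 for all genes.
Aif1, the actin-binding protein Iba1 of activated macrophages, moved most. It had 0.63, 0.74, 1.18 and 0.85 in treated knockout livers against 3.30, 2.44, 1.98 and 2.56 in untreated ones, and -0.45, 0.59, 0.55 and 0.49 in treated wild-type livers against 1.86, 1.89, 1.88 and 1.98 in untreated ones. The groups did not overlap in either genotype. Aif1 fell by 1.72 in knockout and by 1.61 in wild-type livers on the log2 scale, with an SE of 0.26 each (adjusted p = 0.00346 and 0.00176, limma), and both calls held without each array in turn.
Msr1, the class A scavenger receptor, fell by 0.82 in knockout and by 0.88 in wild-type livers (adjusted p = 0.029 and 0.00901, limma). The knockout call was lost without any one of 5 arrays (untreated knockout 2 or 4, treated knockout 2, 3 or 4), and neither call held under normexp, another background correction. Fcgr1, the high-affinity IgG receptor, fell by 1.03 averaged over genotypes (adjusted p = 0.00608), and Clec1b, a lectin-like receptor expressed by mouse Kupffer cells, rose by 0.61 (adjusted p = 0.0157, limma). Lyz2, Cybb, Folr2, Tyrobp and Gas6 fell by 0.53 to 0.75, and of these the calls of Tyrobp and Gas6 did not hold without each array.

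The same list stood higher in the knockout. Averaged over treatments 15 of 29 were called higher and 0 lower, which is 51.7% of the list, where 15.4% of all genes were called higher and 7.65% lower. Under normexp the count was 8, and without both dim arrays it was 13. Leaving out treated knockout array 3 lost 9 of the 15 calls, as did leaving out treated wild-type array 1, and untreated wild-type array 1 or 2 lost 7, so that 5 of 15 held without each array in turn. Gas6, the bridging ligand of the receptors Axl and Mertk, rose most, by 1.39 with dexamethasone and 1.05 without it (adjusted p = 0.000476 and 0.0185, limma), although the untreated call was lost without untreated wild-type array 2 (adjusted p = 0.0533) and without both dim arrays (0.0512). Gas6 is also made by other liver cells. Hmox1, which degrades haem, and the phagosomal metal transporter Slc11a1 rose by 0.82 and 0.60 averaged over treatments, and both calls held without each array in turn. With dexamethasone alone 3 of 29 were called higher, Gas6, Hmox1 and Slc11a1. The count was 8 without untreated knockout array 1, which is outside that comparison and enters only its estimate of the spread. The treated Hmox1 call was lost without any one of treated wild-type arrays 1, 2 and 3 and treated knockout arrays 3 and 4, and that of Slc11a1 without treated wild-type array 1 or treated knockout array 4. Without treatment 1 of 29 was called, Gas6. Over all genes 14.1% were called higher in the treated knockout and 2.06% in the untreated knockout.

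**Figure D5:**
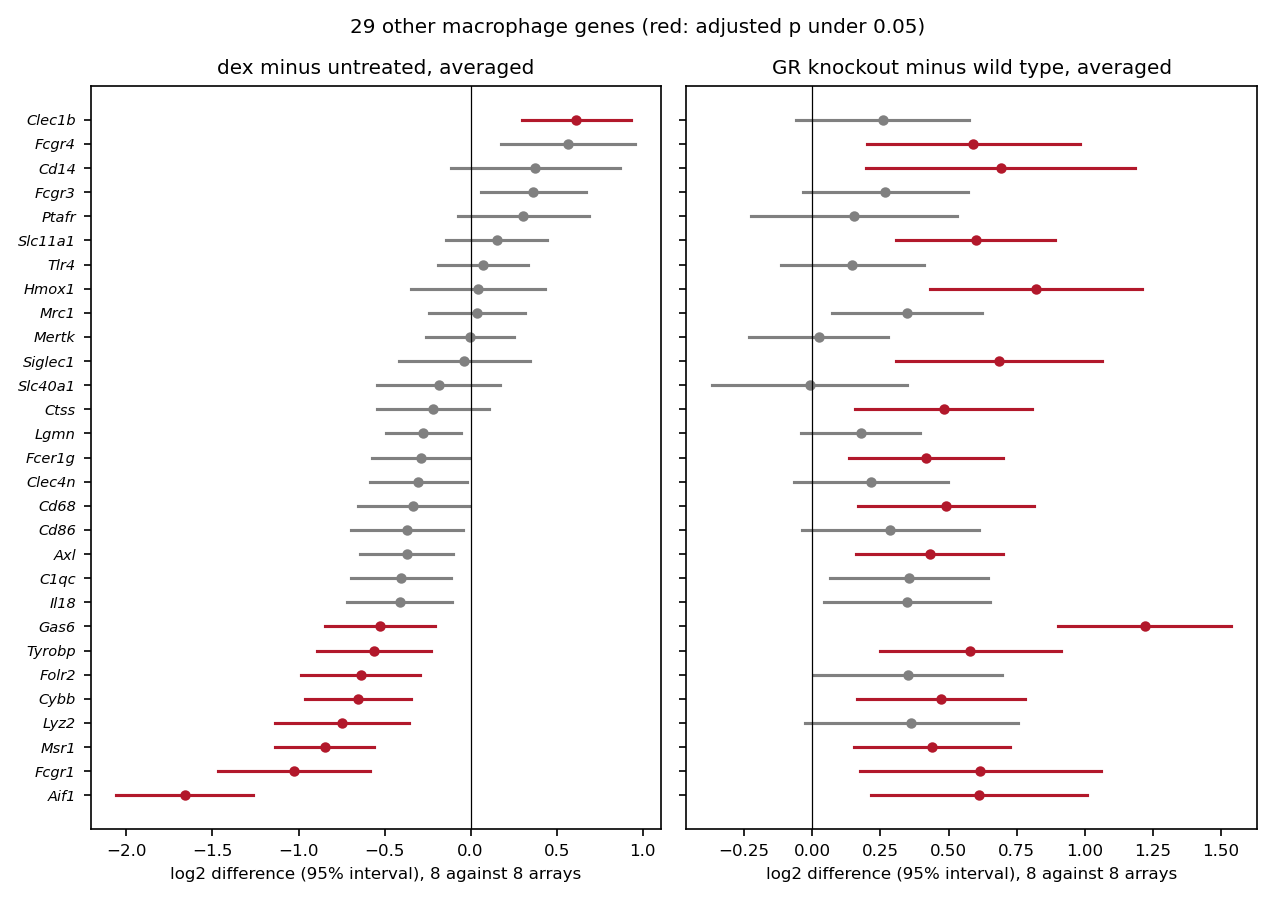
Log2 differences with 95% intervals (x axis) of the 29 other macrophage genes (rows, in the order of the left panel), for dexamethasone against no treatment and GR knockout against wild type, each averaged over the other factor (8 against 8 arrays). Red marks an adjusted p under 0.05: 9 genes on the left, led by Aif1 at -1.66, and 15 on the right, led by Gas6 at 1.22.

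Of 10 macrophage transcription factors listed, 9 were tested, and Spi1, which encodes PU.1, was too dim. In treated livers Cebpb was lower in the knockout, with a log2 difference of -1.36 (adjusted p = 0.000469, limma), and the call held without each array, where 8.2% of all genes were called lower. Cebpb is a bZIP factor of monocytes, and hepatocytes express it too. Spic, a PU.1 relative that sets the iron-recycling programme, and Id1, an inhibitor of helix-loop-helix factors, were called higher, by 0.95 and 1.05 (adjusted p = 0.0337 and 0.035, limma). That is 2 of 9, where 14.1% of all genes were called higher. The Spic call was lost without any one of 5 arrays (treated wild-type 1 or 4, treated knockout 2, 3 or 4) and the Id1 call without any one of 6 (treated wild-type 1, 2 or 3, treated knockout 1, 2 or 3). Untreated, 0 of 9 were called between genotypes in limma, with 1 at an unadjusted p under 0.05, where 2.06% of all genes were called higher and 0.756% lower. Dexamethasone called 0 of 9 in either genotype, where 3.58% of all genes were called in knockout and 12% in wild-type livers. At an unadjusted p under 0.05 in limma 0 of 9 passed in each, against 16.7% and 26.4% of all genes.
Of 7 colony-stimulating factors and receptors, 5 were tested and Csf2 and Csf3 were too dim. Csf2rb, the shared beta chain of the GM-CSF, IL-3 and IL-5 receptors, was higher in the knockout by 1.03 with dexamethasone and 0.73 without it (adjusted p = 0.000576 and 0.0277, limma). That is 1 of 5 in each, where 14.1% and 2.06% of all genes were called higher. The untreated call was lost without any one of untreated wild-type arrays 2, 3 and 4 and untreated knockout arrays 2 and 4, and without both dim arrays (adjusted p = 0.0773). Csf1 and Il34, the ligands of Csf1r, were not called.

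Over all lists and the 7 comparisons 107 calls were made, and 58 of them held without each of the 16 arrays in turn. Markers of other cells moved with genotype and treatment too, and their part in the macrophage results was not tested. Monocyte genes (7 of 9 tested) had a mean centred level of -0.11 to 0.27 in treated and 0.13 to 0.83 in untreated knockout livers, against -0.48 to -0.05 in treated and -0.39 to -0.08 in untreated wild-type livers. Averaged over treatments 4 of 7 were called higher in the knockout (Ly6c1, Chil3, Plac8 and Ccr2), where 15.4% of all genes were, or 2 of 7 without untreated knockout array 1 or without both dim arrays, while Ly6c1 is also a gene of endothelium. The averaged calls of Ly6c1 and Plac8 held without each array, those of Chil3 and Ccr2 in 5 and 4 of 16 omissions. In treated livers Ly6c1 and Plac8 were called higher in the knockout and Cx3cr1 lower. That is 2 of 7 higher and 1 of 7 lower, where 14.1% and 8.2% of all genes were. The calls of Ly6c1, Plac8 and Cx3cr1 held in 4, 13 and 6 of 16 omissions. Under normexp none of the 3 was called and Cx3cr1 stood at 0.11.
Neutrophil genes (5 of 12 tested, with Ly6g, Ngp, Camp, Elane, Retnlg, Mmp8 and Mmp9 not tested) ran from -0.58 to 0.69 in treated and 0.06 to 1.75 in untreated knockout livers, against -1.15 to -0.52 in treated and -0.38 to 0.46 in untreated wild-type livers. Ltf and Mpo were called higher in the knockout averaged over treatments, by 1.51 and 0.91, which is 2 of 5, where 15.4% of all genes were. S100a9 was called lower with dexamethasone, at -1.70, a call lost without treated wild-type array 1 (adjusted p = 0.0514, limma). Averaged over genotypes it was 1 of 5 called lower, where 6.61% of all genes were. Within genotypes 1 of 5 was called lower in wild-type and 0 of 5 in knockout livers, where 6.81% and 2.4% of all genes were. With dexamethasone 2 of 5 had a higher mean in each genotype. Mpo ran from -3.67 to -3.12 in treated and from -4.47 to -3.87 in untreated wild-type livers.
B cell genes (6 of 6 tested) ran from -0.70 to -0.01 in treated and 0.45 to 1.79 in untreated knockout livers, against -1.18 to -0.62 in treated and 0.18 to 0.44 in untreated wild-type livers. Cd79b, Ms4a1 and Fcmr fell with dexamethasone in each genotype, with log2 differences of -2.11, -3.06 and -2.42 in the knockout and -1.75, -2.38 and -2.48 in wild type. Of those 6 calls, 2 held under normexp, both of Cd79b. Called lower in each genotype were 3 of 6 genes, where 2.4% of all genes were in knockout and 6.81% in wild-type livers.
T and NK cell genes (7 of 8 tested) ran from -0.50 to 0.47 in treated and 0.06 to 0.71 in untreated knockout livers, against -0.71 to -0.11 in treated and -0.10 to 0.14 in untreated wild-type livers, with 4 of 7 called lower under dexamethasone averaged over genotypes, where 6.61% of all genes were. The Nkg7 call among them was lost without untreated wild-type array 2 or treated wild-type array 1, and without both dim arrays. Among dendritic cell genes (6 of 8 tested) Ccr7 was called lower with dexamethasone in each genotype, by 1.75 in the knockout and 1.63 in wild type, which held in 9 and 12 of 16 omissions and in neither genotype under normexp. Averaged over genotypes 1 of 6 was called lower and 1 higher (Zbtb46), where 6.61% and 5.04% of all genes were. The list did not fall as a whole, since 4 of 6 had a higher mean with dexamethasone in that comparison.

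Sinusoidal endothelial genes (13 of 14 tested) share the sinusoid with Kupffer cells. Lyve1, a hyaluronan receptor, rose with dexamethasone by 2.58 in knockout and 2.41 in wild-type livers (adjusted p = 0.00133 and 0.000675, limma), while Kdr and Dnase1l3 fell in each genotype. Of the 13, 1 was called higher and 2 lower in knockout livers, where 1.18% and 2.4% of all genes were. In wild-type livers 1 was called higher and 3 lower, against 5.18% and 6.81% of all genes. Between genotypes 0 of 13 were called, where 22.3% of all genes were with dexamethasone and 2.82% without it. At an unadjusted p under 0.05 in limma 1 of 13 passed in treated livers, against 35% of all genes. In the knockout the Kdr call was lost without untreated array 1 or 2 or treated array 3 or 4, under normexp (adjusted p = 0.0503) and without both dim arrays (0.0652), and that of Dnase1l3 without untreated array 2. In wild type the Dnase1l3 call was lost without untreated array 3 or 4 or treated array 1 or 2, and under normexp (adjusted p = 0.0512). Stellate cell genes (9 of 9 tested) had 0 calls in every comparison, where 2.82% to 23.1% of all genes were called. Hepatocyte genes (10 of 10 tested) ran from -0.25 to -0.09 in treated and -0.23 to -0.08 in untreated knockout livers, against 0.10 to 0.31 in treated and -0.00 to 0.38 in untreated wild-type livers. Apoa1, Cps1 and Hnf4a were called lower in the knockout averaged over treatments, by 0.84, 1.09 and 0.77, where 7.65% of all genes were. Of the 10, 0 were called higher, against 15.4% of all genes, and 4 had a higher mean in the knockout. Of the erythroid genes (3 of 6 tested) Alas2 was called higher in the knockout averaged over treatments, by 0.46. That is 1 of 3, where 15.4% of all genes were called higher.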

How the data were processed

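Total liver RNA, labelled with Cy3, was hybridised to 16 Agilent mouse arrays. Per the submitters' processing notes, the authors used Agilent Feature Extraction 9.5, and its deposited processed signal is a background-subtracted intensity. Each file adds the spot's mean and its background as an intensity, and the authors' other columns, per the file headers, flag spots that are dim, saturated or outlying. Values in the series table are the same intensity (largest difference from the deposited processed signal 0). The 75th percentile of these deposited values differs between arrays.

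Of 45018 spots per array, 1639 controls were dropped, and 2121 spots marked as outliers were treated as missing. The 75th percentile of an array was subtracted from its log2 signals. A probe stayed if, in at least 1 group, 3 of 4 arrays measured it well above background (26794 probes). A gene was read from its brightest probe, giving 18507 genes. RefSeq accessions named 22951 probes, symbols and synonyms 9768, and 8455 have no symbol. Limma 3.58.1 in R 4.3.3 estimated the 4 group means from 16 arrays together, with 12 residual degrees of freedom. P-values were two-sided and adjusted by Benjamini-Hochberg over all genes of a comparison, and a gene was called at an adjusted p under 0.05. Motifs and figures used Python 3.11.15, pandas 2.3.3 and matplotlib 3.10.9. The fit was tested on simulated data.

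All 10 markers are named in every comparison, of other lists at most 4 called genes per comparison by size, and the 8 genes most like the markers. In the averaged comparisons and for lists with more calls, further genes were named after their values were seen. The markers and lists were chosen with earlier results of these data known, and comparisons share arrays, so none supports another. Of the listed genes 2 are not reported here. The averaged comparisons were added after seeing the data, and leaving out both dim arrays together was not planned. Replicate numbers are those of the sample titles. Residuals of same-numbered arrays correlated at -0.186 to 0.347 over 24 pairs, with 10 over 0.1, so the numbers were not taken to pair samples. Alternatives were normexp background correction (offset 50), other normalizations, filters, ways to join probes, variance models and array weights, a replicate block, the values of the series table, fits of just the groups compared, a 2-fold threshold, and each array left out in turn.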

Additional observations from a re-analysis of the deposited data

Results flagged for a closer look

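Among the 10 markers 1 of 48 sets of 4 arrays held an array far from the other 3 by Dixon's 95% limit, where chance gives about 1 in 20. It was Clec4f on untreated wild-type array 4, at 4.56 against 3.94 to 3.96. In the other lists only genes called in some comparison were checked, so their count does not compare with that of the markers or with chance. Among these genes 15 of 200 sets held such an array. Treated wild-type array 1 gave 7 of them: Fcgr1 at -0.77, Tyrobp at 0.73, Msr1 at -3.54, Lyz2 at 3.85, Ctss at 3.08, Aif1 at -0.45 and Cps1 at 7.70. On that array all 10 markers were also the lowest of their group. Untreated knockout array 1 gave Cx3cr1 at -4.01 and Zbtb46 at -2.56. The other 6 were Csf2rb on treated knockout array 2 (0.57), Plac8 on untreated wild-type array 3 (1.5), Zbtb46 and Fcmr on treated wild-type array 3 (-1.23 and -6.20), Nkg7 on untreated wild-type array 1 (-2.25) and Apoa1 on untreated knockout array 4 (7.45).

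The dexamethasone response was called different between genotypes for 2 list genes and 0 markers. The 2 were 1 of 7 monocyte genes and 1 of 7 T and NK cell genes tested. In the other lists 0 were called, where 4.61% of all genes were. The interaction was -2.09 for the chemokine receptor Cx3cr1 (adjusted p = 0.0174, limma) and -1.11 for Cd3e, a chain of the T cell receptor complex (adjusted p = 0.0038, limma). Cx3cr1 lost its call under normexp (-0.28, adjusted p = 0.872), while Cd3e kept it (adjusted p = 0.0341).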

How the results depend on the processing

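Results were recomputed under 31 alternatives. Dexamethasone in knockout livers called 46 genes under normexp, 1087 under quantile normalization, 417 with no filter, 2124 with array weights, 139 with only the groups compared, 438 at 2-fold and 1076 without both dim arrays, and in wild-type livers 1194 under normexp, 5041 with array weights, 832 at 2-fold and 3370 without both dim arrays. The interaction called 95 under normexp, 537 with no filter, 2979 with array weights and 1511 without both dim arrays. The knockout called 2363 under normexp, 6729 with array weights and 1828 at 2-fold with dexamethasone, and without it 85 under normexp, 261 with no filter, 2170 with array weights, 90 with only the groups compared and 323 at 2-fold. Averaged, dexamethasone called 1157 under normexp, 4530 with array weights and 354 at 2-fold, and the knockout 2231 under normexp and 882 at 2-fold. Leaving out 1 array gave 312 to 931 genes for dexamethasone in knockout, 1210 to 3277 in wild type, 502 to 1479 for the interaction, 2936 to 5555 for the treated and 157 to 643 for the untreated knockout, and averaged 1380 to 2579 for dexamethasone and 3432 to 4351 for the knockout. The causes were not tested.

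Of the 10 markers, dexamethasone called 1 in each genotype (Cd163) with array weights or without both dim arrays, and 0 to 1 without 1 array. The treated knockout called 2 with array weights, 1 without both dim arrays and 0 to 1 without 1 array, and the untreated knockout 1 with array weights and 0 to 0 without 1 array. The interaction called 0 throughout. Averaged, dexamethasone called 2 with trended robust variance, 0 at 2-fold and 1 to 2 without 1 array, and the knockout 1 under normexp, 4 under quantile normalization, 1 with no filter, 5 with array weights, 0 at 2-fold and 1 to 4 without 1 array. Cd5l lost its call under normexp (0.49, adjusted p = 0.0869) and with no filter (adjusted p = 0.053, limma).

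Among the 10 markers, signs turned for differences that were not called. Among 107 calls of other genes 2 turned under normexp, Cx3cr1 in the treated knockout (0.11) and Ccr7 with dexamethasone in the knockout (0.11), and 47 lost their call there, 13 under quantile normalization. With dexamethasone in knockout livers these were Vsig4 under normexp (-0.0218), C1qb with array weights (0.0703) and without both dim arrays (0.037), and Marco without both (0.22), and in wild-type livers C1qa under normexp (0.0582), quantile normalization (0.0131), array weights (0.0445) and without both (0.0586). For the interaction they were C1qa under normexp (-0.0455), with array weights Clec4f (0.0331), Cd5l (0.007), Csf1r (0.0674), Timd4 (0.083) and Cd163 (0.22), and without both dim arrays Csf1r (0.0324) and Timd4 (0.0506). Without 1 array, dexamethasone ranged in knockout livers over -0.53 to 0.37 for Marco, -0.23 to 0.15 for C1qb and -0.0909 to 0.27 for Vsig4, in wild-type livers over -0.10 to 0.12 for C1qa and -0.029 to 0.26 for Vsig4, and averaged over -0.0281 to 0.16 for C1qb. The interaction ranged over -0.20 to 0.16 for Vsig4, -0.34 to 0.25 for Cd163, -0.20 to 0.13 for Csf1r, -0.34 to 0.0069 for Cd5l, -0.29 to 0.10 for Timd4, -0.31 to 0.0734 for Clec4f and -0.0657 to 0.84 for Marco. The knockout ranged over -0.10 to 0.45 for Adgre1 with dexamethasone and -0.0924 to 0.50 for Cd163 without it.

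With the replicate number as a block, 804 genes were called for dexamethasone in knockout and 2172 in wild-type livers, 1068 for the interaction, and 4155 with and 775 without dexamethasone for the knockout, and averaged 1972 for dexamethasone and 4225 for the knockout. The block changed no call among the markers and lost 11 of 107 among other genes, including Spic in the treated knockout (adjusted p = 0.0543, limma) and Fcgr1 with dexamethasone in wild type (0.0592). Normexp left 25.3% of interaction calls higher against 41.8%, 54.1% against 73.1% for the untreated knockout and 56.2% against 66.8% for the averaged knockout. No scaling moved the median of all genes by over 0.1. Signal over background limits dim probes: the averaged dexamethasone difference of Ccr7 was -0.14 under normexp against -1.69.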
